A study of Mus musculus with 7 samples.

Results

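Replication origins were read at 7 mouse genes whose loci are among those at which mammalian origins were mapped before genome-wide methods: Myc, Lmnb2, Aprt, Top1, Hprt and the adult beta-globin genes Hbb-bt and Hbb-bs. Each gene was taken by name, with its body and 20 kb on each side as its window. The 7 genes, of 21523 protein-coding genes on the autosomes and X, have 6 distinct windows, since those of Hbb-bt and Hbb-bs overlap. The lists were made by sequencing short nascent strands, the size-selected DNA that resists λ-exonuclease because it still starts with an RNA primer, from mouse embryonic stem cells. APH cells were TetO-CDC6 embryonic stem cells treated for 2.5 h with 0.5 µM aphidicolin, which inhibits the replicative polymerases. CDC6 cells were the same TetO-CDC6 cells given 1 µg/ml doxycycline for 30 h, which switches on the CDC6 transgene, so that the agent and the transgene's induction cannot be told apart. Of the WT libraries, replicate 2 came from untreated TetO-CDC6 cells and replicate 1 from untreated wild-type embryonic stem cells that are not labelled with the transgene and were deposited before. TetO-CDC6 cells derive from 1 mouse model. Each of the 3 conditions had 2 libraries and 1 list of origins, and 1 Input sample was not analysed here.

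In mammals, origins have no shared sequence that fixes their position. The origin recognition complex and CDC6 load the MCM helicase at many sites in G1, and only some of these sites fire in S phase, often next to promoters rich in CG dinucleotides. Early maps placed an origin downstream of human LMNB2 beside TIMM13, upstream of human MYC, near the starts of human TOP1 and HPRT, at Chinese hamster Aprt, and within the beta-globin clusters of human and mouse.

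The 300-base promoters of these genes span 250 bases before to 50 after the start in RefSeq (build GRCm38.p6), and they are shown so that their CG content can be set beside the origins listed at them. Capitals mark CG dinucleotides, counted on the printed strand. RefSeq promoters matched 6 of the 7 members, all but Myc. The 5 printed sequences run from the origin-bearing Top1 start, through Hprt, Lmnb2 and Aprt, to Hbb-bt.
Top1: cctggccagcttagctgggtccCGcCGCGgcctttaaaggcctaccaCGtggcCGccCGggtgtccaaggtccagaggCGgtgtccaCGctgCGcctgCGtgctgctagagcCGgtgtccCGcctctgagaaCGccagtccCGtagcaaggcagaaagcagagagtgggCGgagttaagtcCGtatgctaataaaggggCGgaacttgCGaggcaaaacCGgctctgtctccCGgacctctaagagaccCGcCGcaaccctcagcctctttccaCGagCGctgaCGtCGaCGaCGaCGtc
Hprt: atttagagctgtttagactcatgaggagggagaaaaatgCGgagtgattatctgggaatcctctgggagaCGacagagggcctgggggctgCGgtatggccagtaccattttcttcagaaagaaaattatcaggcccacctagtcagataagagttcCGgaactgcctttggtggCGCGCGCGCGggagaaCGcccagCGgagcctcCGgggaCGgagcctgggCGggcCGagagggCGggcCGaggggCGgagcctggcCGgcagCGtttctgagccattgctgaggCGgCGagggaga
Lmnb2: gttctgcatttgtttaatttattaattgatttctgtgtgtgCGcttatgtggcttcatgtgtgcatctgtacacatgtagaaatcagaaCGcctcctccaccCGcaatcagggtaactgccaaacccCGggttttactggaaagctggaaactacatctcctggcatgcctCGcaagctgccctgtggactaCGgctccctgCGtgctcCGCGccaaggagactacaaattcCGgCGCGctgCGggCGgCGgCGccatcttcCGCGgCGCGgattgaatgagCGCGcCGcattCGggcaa
Aprt: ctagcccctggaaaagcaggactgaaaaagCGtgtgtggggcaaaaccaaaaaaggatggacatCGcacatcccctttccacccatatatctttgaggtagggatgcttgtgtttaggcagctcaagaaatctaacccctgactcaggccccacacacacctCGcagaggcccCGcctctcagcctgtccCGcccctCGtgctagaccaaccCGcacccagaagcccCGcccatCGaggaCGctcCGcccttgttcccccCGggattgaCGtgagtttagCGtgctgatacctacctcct
Hbb-bt: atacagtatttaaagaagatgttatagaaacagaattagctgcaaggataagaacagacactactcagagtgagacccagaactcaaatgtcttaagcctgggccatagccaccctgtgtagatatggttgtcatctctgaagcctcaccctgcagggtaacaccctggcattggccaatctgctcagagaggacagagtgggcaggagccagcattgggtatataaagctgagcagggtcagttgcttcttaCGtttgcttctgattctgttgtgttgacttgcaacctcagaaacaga

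The Top1 promoter holds 29 CG dinucleotides at 64% G and C, the Lmnb2 promoter 24 at 55.33%, the Hprt promoter 22 at 61%, the Aprt promoter 14 at 57.67% and the Hbb-bt promoter 1 at 46%. The Hbb-bs promoter, not printed, holds 2 at 49.67%, and a second RefSeq promoter inside Lmnb2 holds 6. Over 21045 protein-coding promoters the median was 13, so Aprt lies near the middle and both globin promoters near the bottom. A quadruplex pattern, meaning 4 runs of GGG or of CCC with gaps of at most 7 bases, was found in the Hprt and Aprt promoters and in 22.28% of all promoters. It was not found in the Top1, Lmnb2, Hbb-bt and Hbb-bs promoters, which says only that these letters are not in those 300 bases.

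Each library has a deposited list of MACS peaks, regions with more reads than a control, and the authors' fold over the control and −log10 q-value are given per peak. The 6 lists hold 71435 to 94747 peaks. Read depth is not known from these lists. The libraries hold DNA, so neither the cell type nor the CDC6 level could be checked from markers. The condition lists differ in length, with 31653 origins in APH, 31384 in CDC6 and 20178 in WT. Each condition list overlapped the MACS peaks of its own 2 libraries at 99.43% or more of its origins. Each library also has a second deposited list. Every origin of the WT list is a row of the longer second list labelled APH 1, and every origin of the APH list a row of the one labelled CDC6 1, which goes against those labels. Every origin of the CDC6 list is a row of the one labelled CDC6 2. The second lists are therefore used only without labels, as a count of 6, and in 3 of them a region is bound to be present wherever all 3 condition lists have an origin, as at Top1 and Myc. WT 1 stands apart, with 8.26% of its peaks on chromosome 8 against 4.86% to 5.53% in the other 5 libraries, and 1.75% on X against 2.24% to 4.15%. Aprt lies on chromosome 8 and Hprt on X. The labels do not say whether the APH or the CDC6 replicates are independent cultures, so their spread may be technical, while the WT pair also differs in its cells. The p-values rest on the spread of all 3 pairs.

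An origin was listed in the window of 4 of the 7 genes under APH, of 3 under CDC6 and of 4 in WT. In all windows of protein-coding genes the share with an origin was 70.6% in the APH list, 73.2% in the CDC6 list and 62.5% in the WT list, so the members' counts were not above the background. In the gene body alone, 3 of the 7 genes had an origin in each list, where the background was 46.2% in APH, 51.6% in CDC6 and 41.7% in WT. Lmnb2, Myc and Top1 had an origin in all 3 lists, against 55.8% of all genes, and Hprt in the APH and WT lists. Aprt, Hbb-bt and Hbb-bs had none in any list, as had 19.3% of all genes. Top1 and Hprt have windows of 60 kb or more. Among all windows under 60 kb, 61.2% held an origin in the APH list, 63.7% in the CDC6 list and 52.1% in the WT list, with 44.8% in all 3 lists and 27.5% in none. Of the 5 members of that size, Myc and Lmnb2 had an origin in all 3 lists and the other 3 had none. The WT list is the shortest. With the 20000 strongest origins of each list, the shares over all windows were 61.8% in APH, 63.3% in CDC6 and 62.3% in WT. There is 1 list per condition, so these counts have no replicate check. MACS peaks were present in 7, 6, 7, 7, 6 and 7 of the 7 windows in APH 1, APH 2, CDC6 1, CDC6 2, WT 1 and WT 2, where 89.9%, 89%, 89.6%, 90.4%, 91.5% and 90.8% of all windows held one. In 6 of the 7 genes, and in 79.4% of all genes, a peak was present in all 6 libraries. The exception was Hbb-bs.

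**Figure D1:**
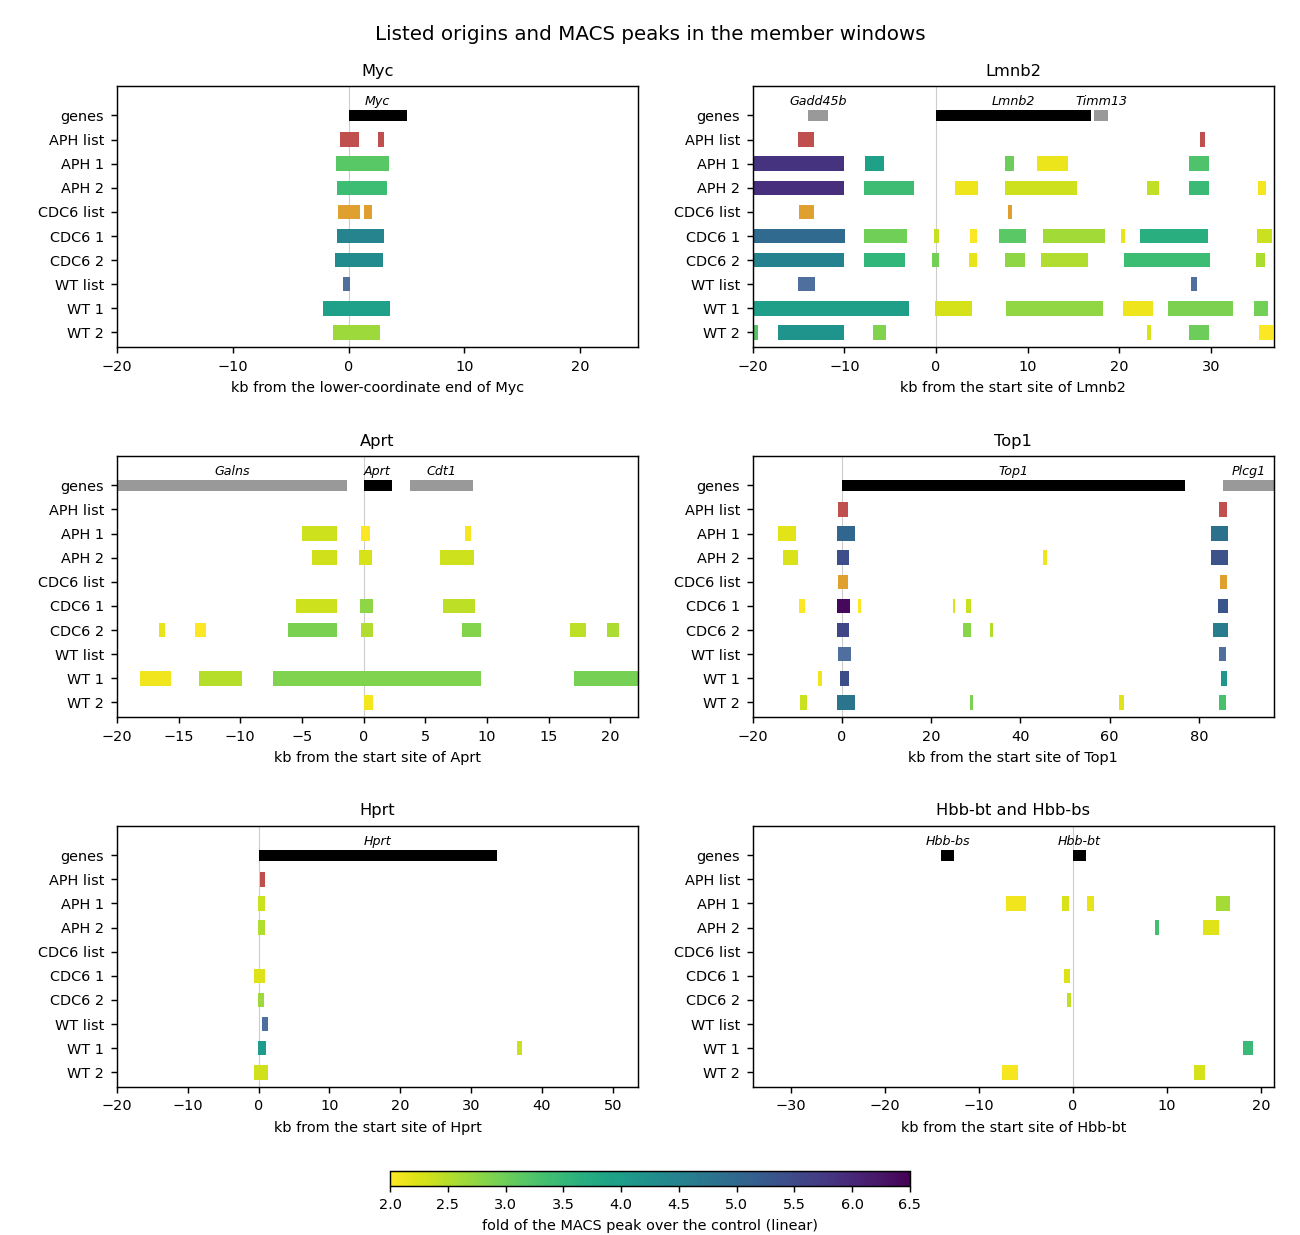
Listed origins and MACS peaks in the 6 distinct windows, as bars along the distance in kb from the start site in the direction of transcription (for Myc, from its lower-coordinate end). Rows give the genes (members black, neighbours grey), the list of each condition and its 2 libraries; peak colour is fold over the control, and bars end at the window edge. Top1 at its start and Myc at its lower-coordinate end carry origins and peaks in all groups, Hprt lacks a CDC6 origin, and Aprt and the globin genes have peaks but no listed origin.

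Top1 encodes topoisomerase I, which relaxes supercoils ahead of forks and RNA polymerase. The gene lies at chr2:160645897-160722764 (mm10), on the plus strand, and an origin covered its start in each list. It spanned chr2:160645018-160647195 in APH, chr2:160645040-160647200 in CDC6 and chr2:160645005-160647871 in WT. Relative to the start, that is bases -879 to 1298 in APH, -857 to 1303 in CDC6 and -892 to 1974 in WT. The peak at the start had folds of 5.01 and 5.43 in APH, 6.40 and 5.55 in CDC6, and 5.45 and 4.76 in WT. Both CDC6 values were above all others, and the WT values enclosed both APH values. Such orders of 2 libraries per condition only describe a site, and how often they occur over all peaks was not counted. The −log10 q-values were 16.5 and 19.5 in APH, 27.8 and 20.03 in CDC6, and 19.1 and 14.8 in WT. All 6 peaks ranked at or above the 94.33rd percentile by q-value in their own library. A second origin lay at the downstream edge of the window, over the start of Plcg1, which encodes phospholipase C gamma 1, at chr2:160730430-160732285 in APH, chr2:160730594-160732326 in CDC6 and chr2:160730461-160732047 in WT. The Plcg1 start had peak folds of 4.85 and 5.37 in APH, 5.32 and 4.64 in CDC6, and 4.15 and 3.31 in WT, and both WT values were the lowest. Both promoters lay under an origin in all 3 lists, and no other matched promoter of the members and their neighbours did so in any list. Between these ends, the 76.9 kb Top1 body held no listed origin, and its internal MACS peaks reached folds of at most 2.89.

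Myc encodes a transcription factor that drives growth and cell-cycle genes. The gene lies at chr15:61985341-61990361 (mm10), and an origin covered its lower-coordinate end in each list, at chr15:61984574-61986245 in APH, chr15:61984455-61986361 in CDC6 and chr15:61984837-61985475 in WT. A second origin further inside was listed in APH, at chr15:61987898-61988447, and in CDC6, at chr15:61986717-61987387, and in WT there was none. What the shorter WT list adds to that absence was not tested. The WT origin was 639 bases wide, against 1672 in APH and 1907 in CDC6 for the first origin. The lists score each origin on a scale of unstated meaning, and the second score of the first Myc origin was at the 69.36th percentile of the APH list, the 83.27th of the CDC6 list and the 18.80th of the WT list. These ranks are within lists of unlike length and do not compare the site between conditions. Each library had a single MACS peak in the window, 4.03 to 5.74 kb wide, which overlapped all of these origins. Its fold was 3.17 and 3.42 in APH, 4.47 and 4.37 in CDC6, and 3.97 and 2.66 in WT. The CDC6 libraries had the 2 highest values, and the WT values enclosed both APH values. The −log10 q-values were 5.68 and 6.68 in APH, 13.0 and 11.7 in CDC6, and 9.31 and 3.27 in WT. The second origins of APH and CDC6 do not overlap each other, but each overlaps the peak of both WT libraries. The WT 2 peak ended at chr15:61988040, inside the second APH origin. No other origin or peak lay in the window.

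Hprt encodes hypoxanthine phosphoribosyltransferase, a purine salvage enzyme, and lies at chrX:52988078-53021660 (mm10), plus strand. An origin was listed just inside its start in APH, at chrX:52988243-52988948, and in WT, at chrX:52988576-52989356, but not in CDC6, where the nearest listed origin was 247.5 kb from the gene. The APH origin spanned bases 165 to 870 after the start and the WT origin bases 498 to 1278, and neither reached the printed promoter. In contrast with the condition lists, all 6 libraries had a MACS peak over the start, and all 6 second lists had a region there, so the second list that contains the CDC6 list holds a region that the CDC6 list leaves out. The peak folds were 2.36 and 2.54 in APH, 2.24 and 2.67 in CDC6, and 4.05 and 2.32 in WT. WT 1 alone stood high, and the other 5 values lay between 2.24 and 2.67. The −log10 q-values were 2.16 and 2.72 in APH, 1.75 and 2.85 in CDC6, and 9.38 and 2.00 in WT. Within X peaks of its own library that WT 1 peak ranked at the 85.77th percentile, against 34.93 in WT 2. WT 1 held fewer of its peaks on X than the other libraries, and what that adds to the Hprt value was not tested. Both CDC6 libraries thus had a peak at the Hprt start, where the CDC6 list names no origin, and at a −log10 q-value of at least 2 the CDC6 1 peak is lost.

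Lmnb2 encodes lamin B2, a component of the nuclear lamina, and lies at chr10:80901363-80918245 (mm10), minus strand, so its 3′ end faces Timm13, which encodes a mitochondrial import chaperone. That gap, at chr10:80900970-80901362, matches the place of the early mapped human origin by gene order only, since mouse and human sequences were not aligned. No condition list and none of the 6 second lists had a region in it. A MACS peak crossed the gap in CDC6 1, with a fold of 2.63, and in WT 1, with a fold of 2.75, and in no other library. Those peaks were 6.70 and 10.6 kb wide, so neither marks the gap itself. Inside the gene, CDC6 had the only listed origin, at chr10:80910002-80910447, about 8.02 kb after the start. A MACS peak overlapped this site in 5 of 6 libraries, with folds of 3.02 and 2.35 in APH, 3.15 and 2.76 in CDC6 and 2.75 in WT 1, and none in WT 2. The WT 1 peak is the same one that crosses the gap, and the APH 2 peak was 7.95 kb wide, so neither marks this site itself. The peaks were 0.98 kb wide in APH 1, 2.90 kb in CDC6 1 and 2.14 kb in CDC6 2. At the start of Lmnb2, peaks were present in CDC6 1, CDC6 2 and WT 1, with folds of 2.38, 2.96 and 2.29.

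The strongest signal in the Lmnb2 window lay outside the gene. An origin at the 3′ end of Gadd45b, a stress-inducible growth-arrest gene, stood about 14.2 kb upstream of the Lmnb2 start in APH (chr10:80931604-80933360) and CDC6 (chr10:80931588-80933241), and about 14.1 kb upstream in WT (chr10:80931419-80933333). The MACS peak over Gadd45b had folds of 5.84 and 5.89 in APH, 4.95 and 4.53 in CDC6, and 3.97 and 4.18 in WT, and these groups did not overlap. The −log10 q-values were 25.4 and 25.0 in APH, 18.5 and 14.2 in CDC6, and 10.9 and 11.97 in WT. A fold is the authors' value for a peak in its own list, so no change between conditions is read from this order. Gadd45b was named after its values were seen, and how often all peaks separate in this way was not counted. The Gadd45b peaks were 7.13 to 19.8 kb wide and all reached the 91.37th percentile or higher of their library. The Gadd45b promoter lay under a MACS peak in all 6 libraries but under no listed origin. In Tmprss9, on the other side of Lmnb2, an origin was listed in APH (chr10:80888927-80889472) and another in WT (chr10:80889762-80890440), and none in CDC6. These 2 origins do not overlap each other, but a single MACS peak spanned both in each library. Peak folds there were 3.26 and 3.45 in APH, 3.65 and 3.42 in CDC6, and 2.88 and 3.01 in WT. All 6 libraries thus had a peak over this site too, although the CDC6 list names no origin there. The peaks were 2.20 and 2.24 kb wide in APH, 7.45 and 9.33 kb in CDC6, and 7.09 and 2.20 kb in WT.

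Aprt encodes adenine phosphoribosyltransferase, a purine salvage enzyme, and lies at chr8:122574637-122576907 (mm10), minus strand, between Cdt1, whose product licenses origins together with CDC6, and Galns, which encodes a lysosomal sulfatase. No list had an origin in its window, and the nearest were 22.8 kb away in APH and CDC6 and 22.5 kb in WT, just outside the window's edge. A MACS peak nevertheless lay within 1 kb of the Aprt start in all 6 libraries, and a region of 3 of the 6 second lists lay there. The folds at the start were 2.03 and 2.28 in APH, 2.76 and 2.54 in CDC6, and 2.88 and 2.07 in WT. The −log10 q-values were 1.97 and 3.07 in APH, 5.95 and 4.10 in CDC6, and 6.18 and 2.07 in WT. The percentiles in their libraries were 18.97 and 54.38 in APH, 77.83 and 59.83 in CDC6, and 80.50 and 38.03 in WT. The other libraries had a peak of 0.75 to 1.12 kb there, whereas in WT 1 the peak was 16.9 kb wide and also crossed the Cdt1 start. The Cdt1 start had folds of 2.07 and 2.34 in APH, 2.44 and 2.83 in CDC6, and 2.88 in WT 1, and no peak in WT 2. In WT 1 the window was at the 94.15th percentile of coverage among the windows of chromosome 8, whose median was 22.7% there, against 6.15% in WT 2. The part of this chromosome-wide excess in the WT 1 values at Aprt was not tested.

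Hbb-bt and Hbb-bs encode adult beta-globin chains, at chr7:103812524-103813923 and chr7:103826523-103827928 (mm10), both on the minus strand and 14.0 kb apart from start to start. Neither window held an origin in any list, and the nearest to Hbb-bt lay 39.28 kb away in APH, 219.5 kb in CDC6 and 39.34 kb in WT. Just upstream of the Hbb-bt start a MACS peak was listed in APH 1, CDC6 1 and CDC6 2, with folds of 2.27, 2.24 and 2.42, and in neither WT library nor APH 2. These peaks ranked at the 17.55th, 21.37th and 21.51st percentile of their libraries, with −log10 q-values of 1.92, 1.75 and 2.01. The Hbb-bs start had no peak in any of the 6 libraries. Between the 2 genes a peak was present in 4 libraries. In CDC6 1 and CDC6 2 it was that same peak just upstream of the Hbb-bt start. APH 1 had that peak and another with a fold of 2.09, and WT 2 had only a peak with a fold of 2.07. No peak covered Hbb-y and Hbb-bh1, which encode embryonic beta-like chains, or their neighbour Hbb-bh2. The strongest peak of the Hbb-bt window had folds of 2.60 and 3.36 in APH, 2.24 and 2.42 in CDC6, and 3.46 and 2.29 in WT, and the groups overlapped. These folds do not compare 1 site. The peak was centred 16 and 9 kb downstream of the start in APH, and 18.7 and 13.5 kb downstream in WT. In both CDC6 libraries it was the peak just upstream of the start.

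**Figure D2:**
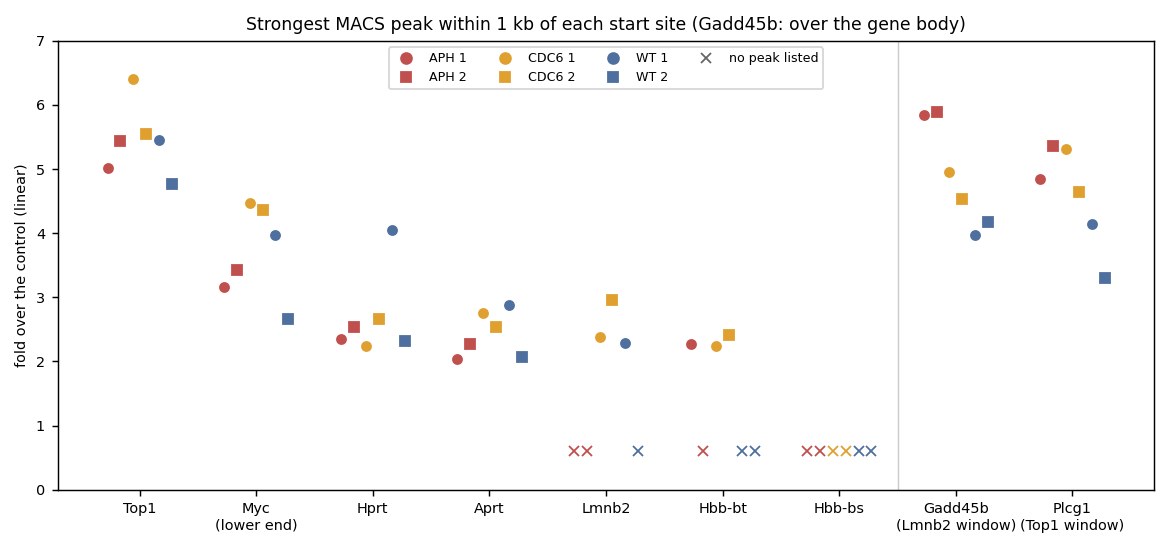
Fold over the control (linear axis) of the strongest MACS peak at each site, with circles for replicate 1, squares for replicate 2 and crosses for no listed peak. Top1, Myc, Hprt and Aprt have a peak in all 6 libraries, Lmnb2 and Hbb-bt in 3, Hbb-bs in none, and the neighbours Gadd45b and Plcg1 in all 6.

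MACS peaks covered different shares of the windows. The Lmnb2 window was covered by 32.7% and 53.0% in APH, 61.6% and 59.0% in CDC6, and 76.6% and 23.2% in WT, and ranked at the 98.13th percentile of all windows or higher in every library. The Aprt window was covered by 9.82% and 13.8% in APH, 16.8% and 24.4% in CDC6, and 66.4% and 1.81% in WT, so that the 2 WT libraries lay at both extremes. The Hprt window was covered by 1.35% in each APH library, by 2.21% and 1.21% in CDC6, and by 2.58% and 2.61% in WT. Both WT values at Hprt were above the others, and all 6 were under the median of all windows. The WT 1 value includes a second peak, 0.774 kb wide and centred 36.8 kb after the start. Its start peak was 1.128 kb wide, against 1.626 kb in CDC6 1, so this order does not describe the start alone. The Top1 window was covered by 10.1% and 9.34% in APH, 7.45% and 7.39% in CDC6, and 3.47% and 7.70% in WT, where both APH values were the highest. The Myc window was covered by 10.1% and 9.64% in APH, 8.94% and 9.24% in CDC6, and 12.7% and 8.95% in WT. The Hbb-bt window was covered by 12.7% and 5.08% in APH, 1.63% and 1.02% in CDC6, and 2.63% and 7.03% in WT, and both CDC6 values were the lowest. The Hbb-bs window, which shares bases with it, was covered by 9.07% and 0% in APH, 1.63% and 1.02% in CDC6, and 0% and 4.12% in WT. The medians over all windows were 5.44% and 5.45% in APH, 6.04% and 5.88% in CDC6, and 8.16% and 5.55% in WT. How often 1 condition holds both highest or both lowest values over all windows was not counted.

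**Figure D3:**
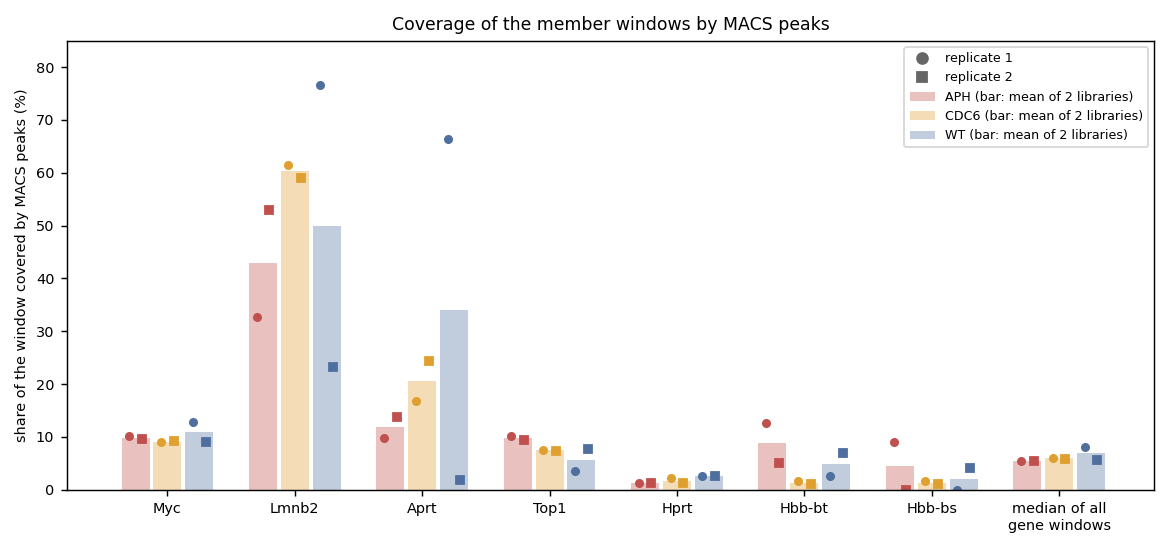
Share of each window covered by MACS peaks, in percent, with bars for the mean of 2 libraries, circles for replicate 1 and squares for replicate 2; the last group is the median of all gene windows. The WT libraries lie far apart at Lmnb2 (76.6% and 23.2%) and at Aprt (66.4% and 1.81%).

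The number of MACS peaks per window was tested with limma over the 6 libraries, on log2 of the peak number scaled to the mean total plus 1, with p-values adjusted over 20828 windows. No window passed an adjusted p of 0.05 in APH minus WT, in CDC6 minus WT or in APH minus CDC6 (0% called in each), so none of the 7 members did. At an unadjusted p under 0.05 there were 1735, 1709 and 2057 windows. Lmnb2 had 5 and 7 peaks in APH, 9 and 8 in CDC6, and 6 in each WT library. The log2 difference was 0.21 ± 0.269 (SE, n = 2 each) for APH minus WT and 0.60 ± 0.269 for CDC6 minus WT, with limma adjusted p of 0.838 and 0.601. Aprt had 3 in each APH library, 3 and 7 in CDC6, and 4 and 1 in WT, with log2 differences of 0.54 ± 0.454 and 0.98 ± 0.454 and limma adjusted p of 0.740 and 0.601. Hbb-bt had 4 and 2 in APH, 1 in each CDC6 library, and 1 and 2 in WT. Its log2 differences were 0.82 ± 0.393 for APH minus WT and 1.02 ± 0.393 for APH minus CDC6, with limma adjusted p of 0.641 and 0.476. Myc and Top1 differed by 0.13 ± 0.313 and 0.07 ± 0.364 in APH minus WT, and Hprt by -0.14 ± 0.329, with limma adjusted p of 0.914, 0.971 and 0.914. In CDC6 minus WT, Myc differed by 0.09 ± 0.313, Top1 by 0.42 ± 0.364, Hprt by -0.18 ± 0.329 and Hbb-bt by -0.20 ± 0.393, with limma adjusted p of 0.939, 0.710, 0.874 and 0.884. Hbb-bs differed by 0.54 ± 0.685 in APH minus WT and by 0.53 ± 0.685 in CDC6 minus WT, with limma adjusted p of 0.836 and 0.811. Without WT 1 there were 307, 644 and 441 called windows in the 3 contrasts, and without WT 2 there were 524, 331 and 454, none of them a member. The Aprt differences in APH minus WT and CDC6 minus WT were 1.09 and 1.53 without WT 1, and -0.029 and 0.41 without WT 2. Those of Hprt were 0.076 and 0.036 without WT 1, and -0.36 and -0.40 without WT 2. A p above the threshold does not show that the peak numbers are alike.

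**Figure D4:**
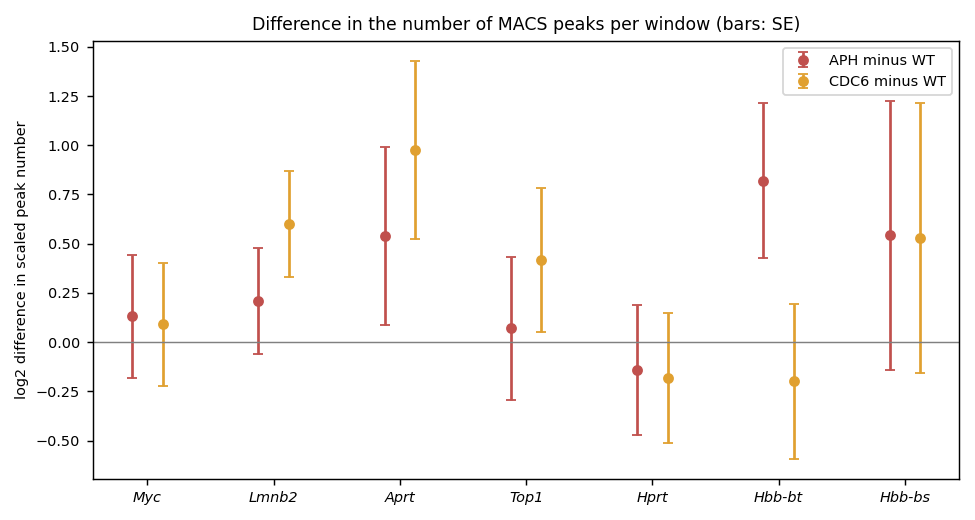
Log2 difference in the scaled number of MACS peaks per window, for APH minus WT (red) and CDC6 minus WT (orange), with bars of 1 SE from limma. None of the 14 differences passed an adjusted p of 0.05, and they lie between -0.20 and 0.98.

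The CG content of promoters was set beside the lists over all genes. Of all 21045 promoters, 27.6% lay under an APH origin, 34.5% under a CDC6 origin and 26.5% under a WT origin, and 32.7% lay under a MACS peak in all 6 libraries. Promoters were split by CG number into low (0 to 6), middle (7 to 21) and high (22 to 67) groups of about equal size. In the low group, 2.21% lay under an APH origin, 2.90% under a CDC6 origin and 1.69% under a WT origin. In the high group, the shares were 61.6%, 73.4% and 59.9%. Both globin promoters belong to the low group and Top1, Lmnb2 and Hprt to the high group, in which Top1 lay under an origin in all 3 lists and Lmnb2 and Hprt in none. Aprt belongs to the middle group, of which 22.2%, 30.8% and 21.2% lay under an origin. CG content thus goes with origins at promoters over the genome, while 2 of the 3 CG-rich member promoters had none over the promoter itself.

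**Figure D5:**
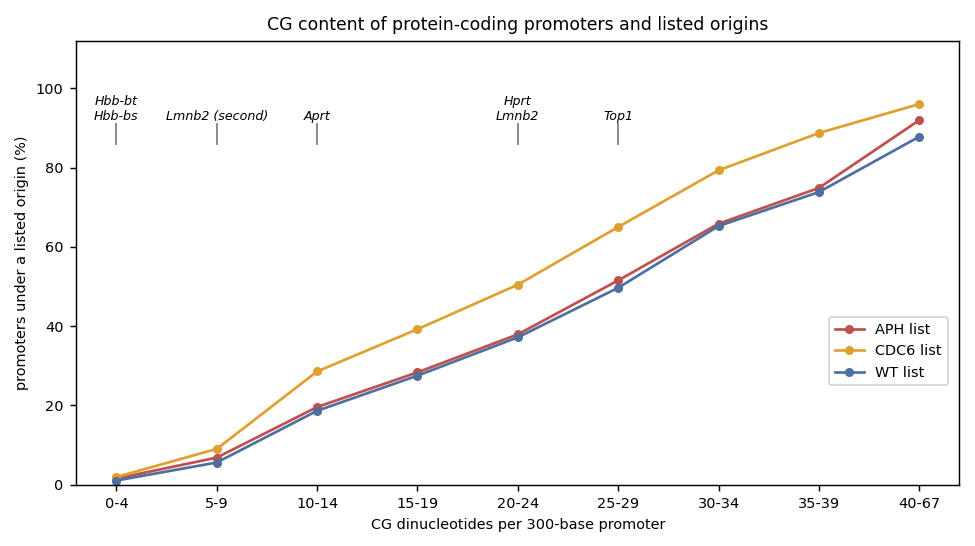
Percent of promoters under a listed origin (linear axis) against the number of CG dinucleotides per 300-base promoter, in bins, for the 3 condition lists. The share rises from under 2% in the lowest bin to over 87% in the highest; labels mark the bins of the members, with a second Lmnb2 promoter in the bin of 5 to 9.

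For each member, the genes most like it were sought by the percentile of the strongest MACS peak in the window over the 6 libraries, as a Euclidean distance in percentile points. Rasgrp1 and Cog2 were nearest to Myc, at 4.05 and 5.61, and Slc26a5 and Eif4e1b to Lmnb2, at 1.84 and 1.94. Elac1 and Me2, which share a peak, were nearest to Top1, at 1.15 each. Sec11c and Zbtb49 were nearest to Aprt, at 10.0 and 11.1, and Proz and F10 to Hprt, at 18.3 and 19.5. Dynlrb2 and Hps1 were nearest to Hbb-bt, at 13.2 and 24.7, and Ms4a4a and Vmn1r81 to Hbb-bs, at 16.2 and 18.2. A window with no peak in a library was given a percentile of 0. Cog2, Proz, F10 and Dynlrb2 lie on chromosome 8, where WT 1 had its excess of peaks. What that excess adds to these matches was not tested.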

How the data were processed

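Short nascent strands were sequenced in 6 libraries and compared as 3 conditions with 2 libraries each, and 1 Input sample was not analysed here. The submitters' processing notes name bedtools 2.23.0, BWA 0.7.10, FastQC, MACS2 2.0.10, Picard 1.107 and SAMtools 0.1.19 without roles or settings. The deposited MACS lists give each peak's score, its fold ratio over a control, and its −log10 p-value and −log10 q-value. The deposited condition lists and second lists give each region 2 scores of unstated meaning. The sources used here do not say how the authors combined libraries. Chromosome ends fit mm10.

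Windows were gene bodies with 20 kb on each side (RefSeq table), an origin counted with at least 1 base of overlap, and a peak counted in the limma test by its midpoint. Genes at coordinates below 3 Mb were left out. Sites at a gene start were 1 kb on each side. Peaks per window were fitted with limma 3.58.1 in R 4.3.3 (trend, Benjamini-Hochberg), as log2 of scaled number plus 1, after windows with no peak in any library were left out. The fit was run on simulated counts whose replicates varied by Poisson noise alone. That run does not show which changes the fit could find in these libraries. Condition lists and folds had no test. Replicate numbers did not pair samples. Differences of replicate 1 minus replicate 2 correlated between conditions at -0.08 (APH and CDC6), -0.17 (APH and WT) and 0.02 (CDC6 and WT). Named genes were the 7 members, listed neighbours, the 2 nearest profiles per member and at most 4 of a second list of 12 early mapped genes; Gadd45b and Tmprss9 were named after their values were seen. The members and lists were chosen with earlier results of these data known.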

Additional observations from a re-analysis of the deposited data

How the results depend on the processing

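The counts of 0 called windows (APH minus WT, CDC6 minus WT, APH minus CDC6) stayed 0 with no scaling, a pseudocount of 0.5, only windows with a mean of at least 1 peak, peaks with a −log10 q-value of at least 2, covered bases, and the replicate block (0 calls, while 1376, 1343 and 1872 windows had an unadjusted p under 0.05). With the 70000 strongest peaks of each library there were 196, 174 and 176 calls, of which 190, 171 and 168 had no spread within groups. The median of all windows was -0.0036, 0.12 and -0.13, against -0.21, 0 and -0.20 with no scaling and -0.27, 0.26 and -0.59 with covered bases. With empty windows kept, chosen after seeing the data, there were 132, 122 and 90. Leaving out 1 library, where the lone sample left is assumed to vary like the other groups, gave 0 to 524, 0 to 644 and 0 to 454 calls: 307, 644 and 441 without WT replicate 1, 524, 331 and 454 without WT replicate 2, and 0 without any other. Of these, 217, 217 and 0 without WT replicate 1 and 258, 258 and 0 without WT replicate 2 had no spread within groups. No member was called under any of these. The sign of a member's log2 difference turned with covered bases in APH minus WT (Myc -0.094, Lmnb2 -0.014, Aprt -0.13), with no scaling (Lmnb2 -0.015, Top1 -0.13), and with the q-value threshold (Lmnb2 -0.0080, Top1 -0.28 and Hprt 0.073 in APH minus WT, Hbb-bt 0.025 in CDC6 minus WT). Leave-one-out ranges that crossed 0 were, in APH minus WT, -0.026 to 0.45 for Lmnb2, -0.029 to 1.09 for Aprt, -0.30 to 0.44 for Top1, -0.36 to 0.076 for Hprt and -0.50 to 1.59 for Hbb-bs, and, in CDC6 minus WT, -0.40 to 0.036 for Hprt and -0.53 to 0.14 for Hbb-bt. Of all genes, the share with an origin in the APH list was 60.5% with 10 kb flanks, 46.2% in the gene body alone and 61.8% with the 20000 strongest origins. The CDC6 shares were 64.8%, 51.6% and 63.3%, and the WT shares 53.9% and 41.7% for the first 2. The members with an origin were then 3 of 7 in each list with 10 kb flanks and in the gene body alone, and 3, 3 and 4 in APH, CDC6 and WT with the 20000 strongest origins. With the q-value threshold, 4 of the 7 windows held a peak in CDC6 1, without Hprt, Hbb-bt and Hbb-bs. In WT 2 it was 5, without Hbb-bt and Hbb-bs, and in APH 1 it was 6, without Hbb-bs. The peak at the Aprt start in APH 1 was also lost. Read depth is not known from these lists, so what it limits cannot be given.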

Other observations

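A second list of 12 genes with early mapped origins was read the same way. An origin lay in the window of 9 in the APH list, 10 in the CDC6 list and 8 in the WT list, and 7 had one in all 3 lists. Gnai3, a G protein subunit gene, had one just inside its start in each list, from 52, 161 and 34 bases after it in APH, CDC6 and WT. Fmr1, on X like Hprt, had one across its start in all 3 lists, whereas G6pdx, also on X, had none in any list and a MACS peak in its window in 3 of the 6 libraries. These lists have no replicates, so the counts were not tested.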
